A study of Eucalyptus grandis and Eucalyptus globulus with 10 samples.

Results

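A group of 202 array features, 0.943% of the 21413 read on each array, had an RMA intensity at least 16-fold higher in leaf than in xylem of Eucalyptus grandis clone A, in each of 2 trees. They were chosen on the log2 scale, after the 2 blocks of an array had been averaged, as the features whose leaf value exceeded the xylem value of the same tree by 4 log2 units or more. RMA (robust multi-array average) condenses the brightness of a feature's probes into 1 number, and here each of the 202 features was measured by 9 probe pairs in each block. Because leaf and xylem values of clone A chose the features, these values are given as a description with no test.

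The samples were 10 tissue pieces from field-grown trees aged 4 years, in 5 groups of 2. The groups were mature leaf blade (E. grandis clone A) and differentiating xylem from E. globulus clone B, E. globulus clone A, E. grandis clone B and E. grandis clone A. Ramets are genetically identical trees propagated from 1 individual, so both arrays of a group share a genotype, and the letters A and B name different clones in each species. Leaf came from the same trees as the clone A xylem, and its central vein was cut away, while xylem was scraped from the trunk under the bark, per the labels' protocols. Leaf is thus represented by 1 genotype of 1 species, and leaf of the other 3 clones was not analysed here. Replicates are separate trees of 1 clone, each with its own array. The p-values below measure the spread between such trees together with that between their arrays.

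A mature eucalypt leaf blade is mostly green mesophyll, whose cells fix carbon, and in leaves the transcripts for light-harvesting proteins and for the small subunit of Rubisco, the carbon-fixing enzyme, are known to be very abundant. Differentiating xylem is a non-green tissue in which cells leave the cambium, expand, lay down thick walls of cellulose, hemicellulose and lignin, and in vessels and fibres then die. The feature IDs could not be tied to genes. The reference gene table matched 0 of the 21413 IDs and the files do not pair them with names, so no gene or role is given to any feature, and the tissue labels could not be checked against marker genes. In pieces of tissue, fewer cells of a type and less RNA per cell cannot be told apart.

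Values were taken from the per-array files, each with the sample it was deposited under, where array medians lay between 221 and 237 intensity units. The series also came with 1 joint value table, which did not follow the same assignment. Only 1 of its 10 columns matched the array file of its own sample, and the 2 columns named for leaf held the values filed as E. globulus clone B xylem. The values filed as leaf stood in the columns named E. globulus clone A ramet 1 and clone B ramet 1. By the table's column names 2 features met the rule for leaf, and 0 of them were among the 202. The array of leaf ramet 1 stood apart in its blocks, which differed with an SD of 0.587 log2 units over all features, against 0.285 to 0.364 on the other 9 arrays. Its interquartile range of 2.11 was the lowest, and that of E. globulus clone A ramet 1, at 2.84, the highest of the 10. The array numbers fell into a higher series, which held leaf, E. grandis clone B ramet 2 and clone A xylem ramet 1, and a lower series with the other 6 arrays. The 2 series are read from the numbers alone, and what they stand for is not known here.

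The 202 features were bright on both leaf arrays and mostly dim on all xylem arrays. Their median log2 intensity was 12.30 on leaf ramet 1 and 13.26 on leaf ramet 2, against 6.84 and 6.95 on the clone A xylem arrays that the rule used. On the 6 xylem arrays that took no part in the choice, the medians were 7.02 and 7.12 in E. globulus clone B, 6.59 and 6.97 in E. globulus clone A, and 6.90 and 7.15 in E. grandis clone B. The lowest value on a leaf array was 9.90, and the highest on a xylem array of E. grandis 10.39. In E. globulus xylem the highest value was 12.38, so there some features came close to leaf.

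**Figure D1:**
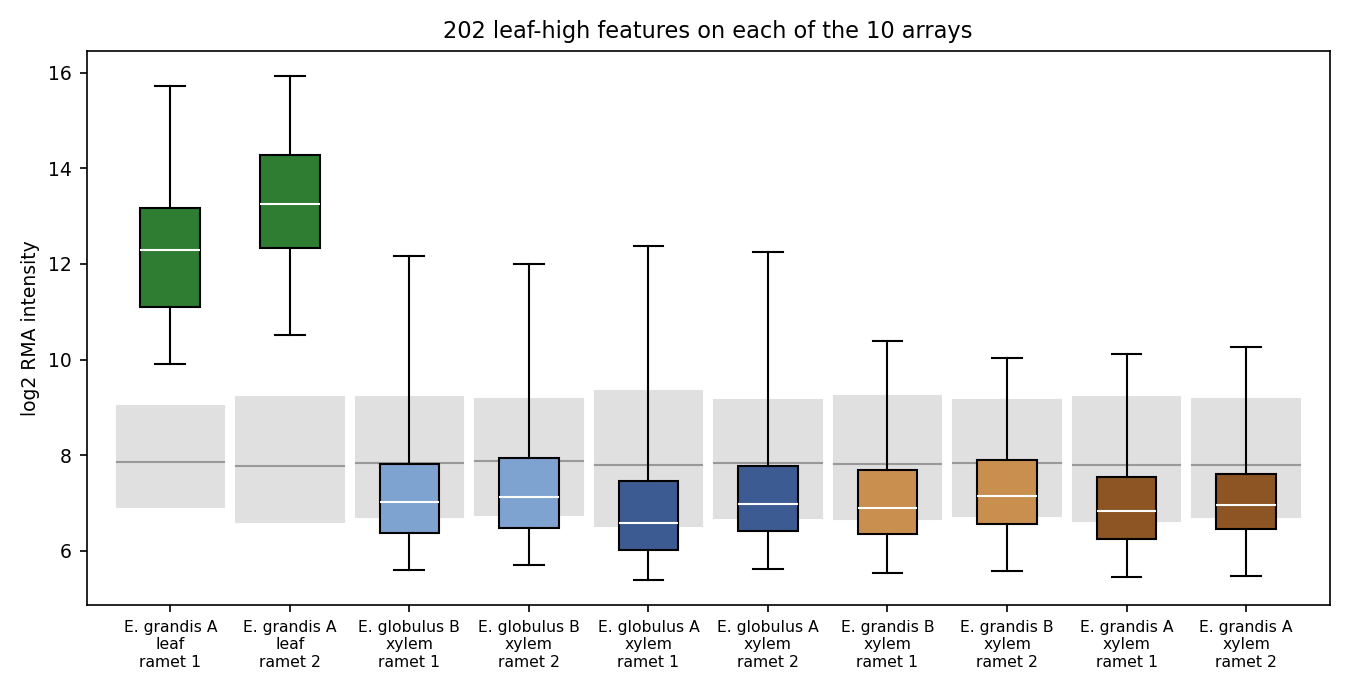
Log2 RMA intensity (vertical axis) of the 202 features on each of the 10 arrays (horizontal axis), with boxes for the quartiles, a white line for the median and whiskers to the lowest and highest feature. Grey bands are the quartiles and grey lines the medians of all 21413 features on that array. The leaf boxes, with medians of 12.30 and 13.26, lie above all xylem boxes, and the E. globulus whiskers reach above 12.

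Leaf minus xylem had a median of 4.91 log2 units in the tree of ramet 1, with a range of 4.01 to 9.15, and a median of 5.97 in that of ramet 2, with a range of 4.03 to 9.68. The larger difference was in ramet 2 for 179 features and in ramet 1 for 23. Ramet 1 set the size of the group. There 204 features (0.953% of all) reached 4 log2 units, and 202 of them, 99%, also did so in ramet 2. In ramet 2 the limit was reached by 498 features (2.33% of all), of which 40.6% also reached it in ramet 1. The 296 features that reached it in ramet 2 alone had a median difference of 2.95 in ramet 1, and 240 of them had at least 2 log2 units there. For 16 of the 296 the difference in ramet 1 was under 1 log2 unit. The precision of ramet 1 is that of the array whose blocks differed most. The interquartile range of leaf ramet 1 was 2.11 log2 units, against 2.62 for leaf ramet 2. Leaf and xylem of ramet 1 were both in the higher series of array numbers, while the xylem array of ramet 2 was in the lower. Such array differences cannot be told apart from a difference between the trees, and their part in this gap was not tested.

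Most of the features lay not far above the limit. By the smaller of the 2 tree differences, 108 features had 4 to 5 log2 units, 47 had 5 to 6, 31 had 6 to 7, 12 had 7 to 8 and 4 had more than 8. LYPTUS00S00020634 and LYPTUS00S00015106 were just inside, at 4.01 each. LYPTUS00S00009901, at 3.99, and LYPTUS00S00002352, at 3.98, were just outside. Each block taken alone put 186 (block 1) and 190 (block 2) of the 202 past the limit in both trees, and 174 passed in both blocks. The other 28 all had a smaller tree difference of 4.76 or less.

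**Figure D2:**
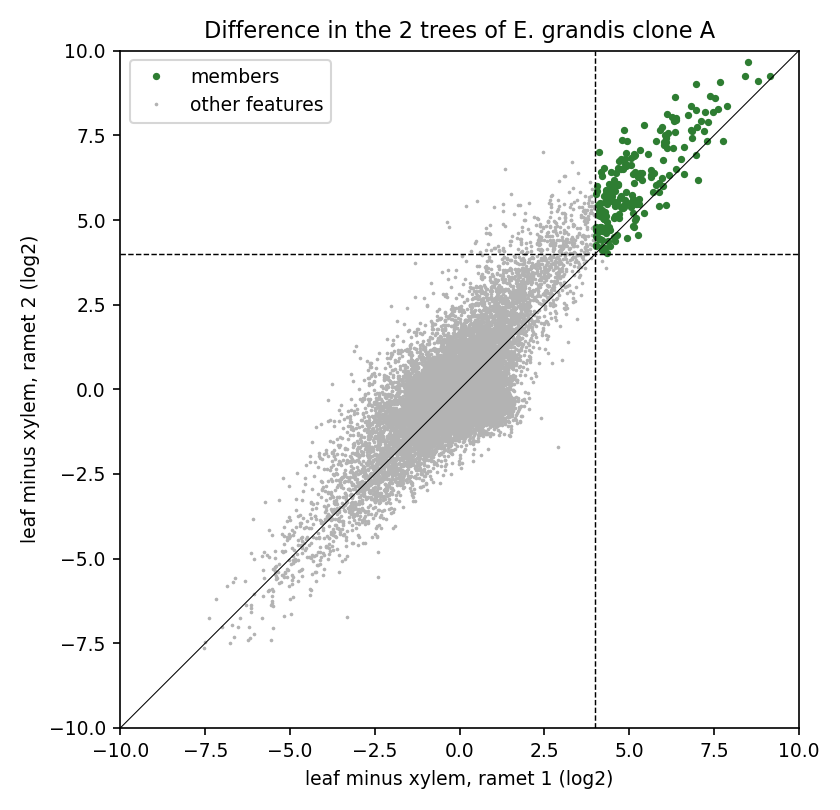
Leaf minus xylem in log2 units in the tree of ramet 1 (horizontal axis) and of ramet 2 (vertical axis) of E. grandis clone A, 1 point for each of 21413 features, with the 202 leaf-high features in green. Dashed lines mark 4 log2 units and the solid line equal differences. Most green points lie above the solid line, as 179 of 202 differences were larger in ramet 2.

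The features farthest apart between the tissues were LYPTUS00S00015165 and LYPTUS00S00015427. LYPTUS00S00015165 had log2 intensities of 15.27 and 15.31 in leaf, against 6.22 and 6.15 in E. globulus clone B xylem, 5.45 and 6.12 in E. globulus clone A, 6.24 and 6.15 in E. grandis clone B, and 6.12 and 6.04 in clone A. Its leaf arrays differed by 0.04, and every xylem array was more than 9 log2 units lower. LYPTUS00S00015427 had 14.89 and 15.36 in leaf, against 6.08 and 6.07 in E. globulus clone B xylem, 5.78 and 5.91 in clone A, 6.44 and 6.61 in E. grandis clone B, and 6.10 and 6.24 in clone A. Here too the 8 xylem arrays lay close together near the dim end of the array. Background was not measured in the files used here, so a fold change against such dim values holds on the scale of the RMA intensities. The brightest feature in leaf, at 15.72 and 15.93, was LYPTUS00S00000094, with xylem values between 6.76 and 8.09. Brightness also depends on the probes, so its order among features is no order of transcript abundance.

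The leaf ramets were unequal in these features. Ramet 2 was higher than ramet 1 in 191 of the 202, with a median difference of 0.98 log2 units, while over all 21413 features the median was -0.16. The features were chosen partly for high leaf values, so these 2 medians are not from like selections. In 96 of the 202 the leaf arrays were more than 1 log2 unit apart, and in 16 ramet 2 was more than 2 units higher. These counts were not taken over all features. The leaf arrays were also far apart in general, with a median absolute ramet difference of 0.98 for the 202 and 0.518 for all features. In clone A xylem it was 0.185 and 0.217. No such gap was seen in clone A xylem, where 0 of the 202 had ramets more than 1 unit apart. LYPTUS00S00003280 differed most, at 11.24 in leaf ramet 1 and 14.58 in leaf ramet 2, and LYPTUS00S00002606 next, at 9.94 and 12.80. Across the 202 features the leaf ramets still ranked them alike, with r = 0.863, a description over features that share both arrays.

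In xylem the 202 features did not all lie at the dim end of the arrays, and detection was not measured. On each xylem array, 33.7% to 47% of them lay below the lower quartile of the array, where 25% of all features lie by definition, and 39 to 54 of the 202 lay above its median. Below the lower quartile on all 6 arrays outside the rule were 52 features, or 25.7%, against 16.4% of all features. Above the median on all 6 were 26, or 12.9%, against 39.1% of all features. The rule asked for xylem values of E. grandis clone A far below leaf. Over the 202, its xylem means correlated with r = 0.81 to 0.92 with those of the other xylem groups. Low values on the 6 arrays thus follow in part from the choice, and these shares stand as a description only. Of 36 of the 202 above the median on both clone A xylem arrays, 23 were above it on all 6 others, or 63.9%, against 78.7% of all features above the median on both. Of 77 of the 202 below the lower quartile on both clone A arrays, 50 were below it on all 6 others, or 64.9%, against 68.4% of all such features, and 1 was above the median on any of them.

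The 2 features brightest in clone A xylem show the other end of the range. LYPTUS00S00003496 had 14.55 and 14.49 in leaf and 10.12 and 10.26 in clone A xylem, and it was also bright in the remaining xylem, between 9.79 and 10.88. LYPTUS00S00007466 had 13.75 and 13.88 in leaf and 9.48 and 9.72 in clone A xylem, with 9.35 to 10.39 in the remaining xylem. Both were thus above the array median in every tissue and clone.

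Xylem levels of the 202 features were similar in the 3 clones that the rule had not used. Mean leaf level minus mean xylem level had a median of 5.31 log2 units against E. globulus clone B, 5.47 against E. globulus clone A and 5.37 against E. grandis clone B, close to the 5.38 of clone A itself. The mean difference was at least 4 units for 190, 191 and 193 of the 202 features in these 3 clones, counts not taken over all features. By a stricter measure, the lower leaf array against the higher xylem array, 158 features kept 4 units over E. globulus clone B (0.845% of all features did), 163 over E. globulus clone A (0.901%) and 160 over E. grandis clone B (0.813%). Since leaf values chose the features, all these counts are a description only, and percentages over all features stand beside the stricter ones.

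Over all 6 arrays at once, 142 of the 202 features kept the lower leaf array at least 4 log2 units above the highest xylem array, against 0.705% of all features. A gap of 3 to 4 units was left in 53 features, 2 to 3 in 4 and less than 2 in 3. The smallest gap was 0.55, so in 0 of the 202 did a xylem array reach the lower leaf array. The features were chosen for high leaf values, so this lack of overlap follows in part from the choice. It was not counted over all features. The highest of the 6 xylem arrays was one of E. globulus clone B in 92 features, of E. globulus clone A in 35 and of E. grandis clone B in 75. The 3 features with less than 2 units were LYPTUS00S00011460, LYPTUS00S00003280 and LYPTUS00S00016780.

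**Figure D3:**
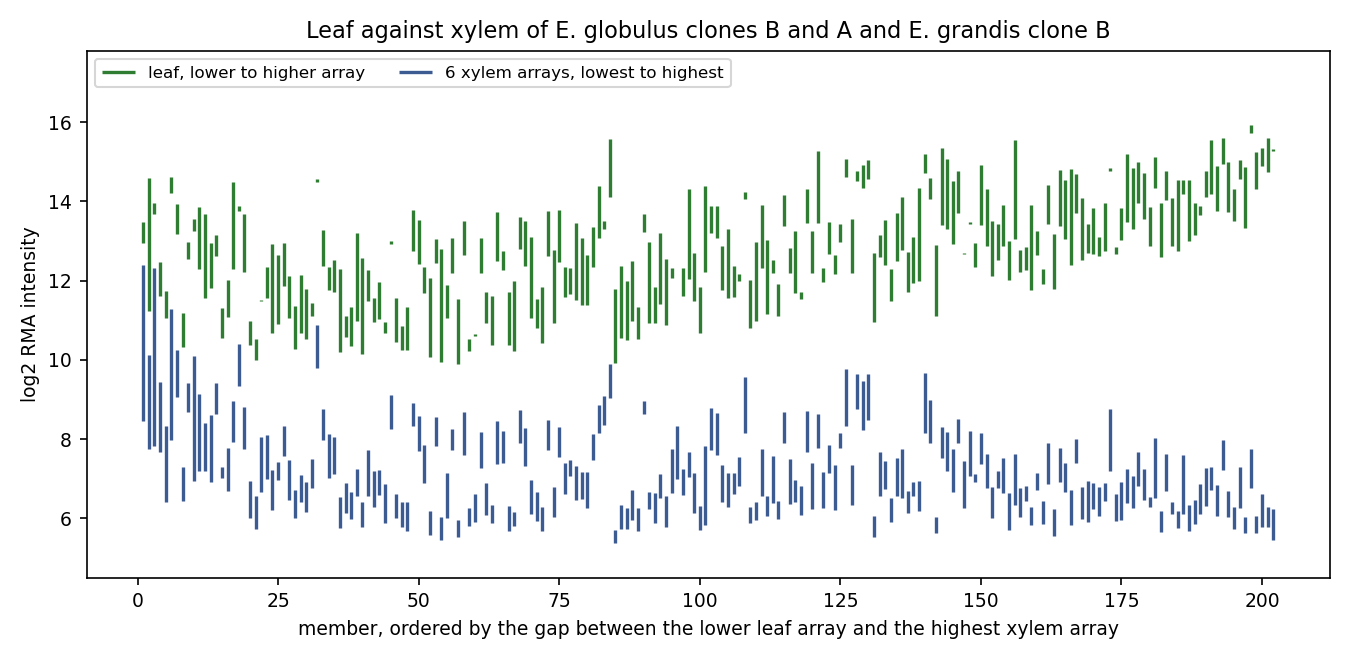
Each of the 202 features (horizontal axis, ordered by the gap) with its log2 RMA intensity (vertical axis) as a green line from the lower to the higher leaf array and a blue line from the lowest to the highest of the 6 xylem arrays of E. globulus clones B and A and E. grandis clone B. Green and blue lines overlap in 0 of 202 features, which were chosen for high leaf values, and the gap runs from 0.55 to 9.03 log2 units.

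The 6 arrays differed little among themselves in most of these features. The range over them had a median of 0.79 log2 units, against 0.86 over all 21413 features. It exceeded 1 unit in 54 of the 202, or 26.7%, against 38.2% of all features, and 2 units in 5, or 2.48%, against 3.64%. Across the 202 features, group means correlated with r = 0.971 between the E. globulus clones and 0.86 and 0.836 between E. globulus clones B and A and E. grandis clone B. These correlations are across features, which are not independent, and each mean rests on 2 arrays.

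E. globulus xylem was compared with E. grandis clone B xylem, which asks whether leaf-high transcripts differ in xylem between the species, as far as 1 E. grandis clone can stand for its species. In E. globulus 5 of the 202 rose above E. grandis clone B and 4 fell below it, 4.46% of them, against 3.59% of all 21413 features (1.86% higher and 1.73% lower), which is near the background. The median log2 difference of the 202 was -0.06, and that of all features -0.02. The calls came from limma fitted over these 6 arrays and all features, with Benjamini-Hochberg adjusted p under 0.05. Of the 9 features called, 6 differed at least 2-fold.

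LYPTUS00S00016780 was higher in leaf and in E. globulus xylem than in E. grandis xylem. It had log2 intensities of 12.16 and 12.01 in E. globulus clone B xylem and 12.31 and 11.94 in clone A, against 8.41 and 7.82 in E. grandis clone B xylem, while clone A of E. grandis had 13.67 and 13.97 in leaf and 7.51 and 7.62 in xylem. The E. globulus arrays, 2 of each clone, averaged 12.10 ± 0.17 (SD, n = 4) and those of E. grandis clone B 8.11 ± 0.42 (SD, n = 2), with no overlap. The E. globulus SD also holds the spread between its clones. The log2 difference was 3.99 (SE 0.244, limma adjusted p 0.000146).

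LYPTUS00S00011460 was likewise higher in E. globulus than in E. grandis xylem. It was at 11.64 and 11.78 in E. globulus clone B xylem and 12.38 and 12.24 in clone A, against 8.48 and 8.46 in E. grandis clone B xylem, with 12.94 and 13.48 in E. grandis leaf and 7.83 and 7.86 in clone A xylem. Its highest E. globulus array was 0.55 log2 units below the lower leaf array. The log2 difference of E. globulus from E. grandis clone B was 3.54 (SE 0.2, limma adjusted p 9.68e-05).

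In the other direction, LYPTUS00S00007262 was high in the xylem of E. grandis clone B alone. It had 7.75 and 8.30 in E. globulus clone B xylem and 6.94 and 7.74 in clone A, against 10.10 and 9.80 in E. grandis clone B, and clone A of E. grandis, at 7.39 and 7.73 in xylem, was near E. globulus. Its leaf values were 13.26 and 13.56. The log2 difference of E. globulus from clone B was -2.27 (SE 0.285, limma adjusted p 0.00459). With clone as a random block over all 8 xylem arrays, which compares the species and includes clone A, it was -1.07 with a limma adjusted p of 0.369, and over 18 alternatives that kept the per-array files the adjusted p ran from 4.45e-06 to that value.

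LYPTUS00S00000195 was lower in E. globulus and alike in both E. grandis clones. It had 6.40 and 6.41 in E. globulus clone B xylem and 5.84 and 6.21 in clone A, against 7.83 and 7.70 in E. grandis clone B, with 7.35 and 7.60 in clone A xylem and 12.22 and 14.39 in leaf. The log2 difference was -1.55 (SE 0.211, limma adjusted p 0.00597). The other 3 higher features had log2 differences of 0.90 to 2.36, among them LYPTUS00S00003496 at 0.90 (SE 0.202, limma adjusted p 0.0478). The other 2 lower ones had -0.93 each. Of these, LYPTUS00S00002473 was high in xylem of E. grandis clone B alone, at 8.46 and 8.44. Its E. grandis clone A xylem, at 7.45 and 7.10, did not exceed E. globulus, at 7.38 to 7.77. For LYPTUS00S00018971, called higher, 1 E. grandis clone A xylem array, at 7.62, lay within the E. globulus range of 7.52 to 8.34. For LYPTUS00S00003496, LYPTUS00S00015707 and LYPTUS00S00004955 this clone lay outside the E. globulus range, on the side of clone B.

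**Figure D4:**
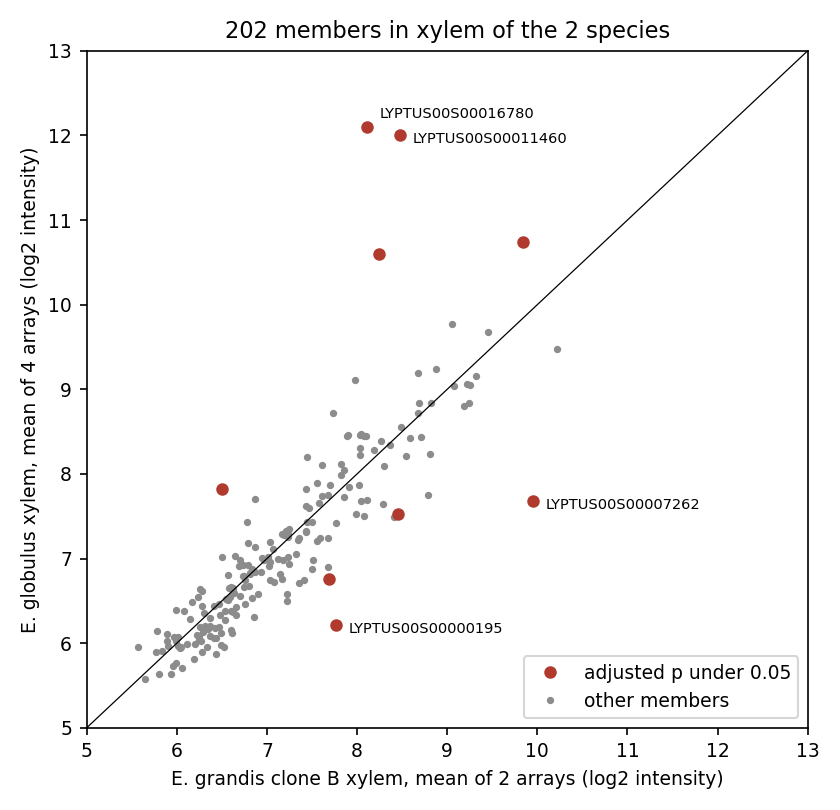
Mean log2 RMA intensity of the 202 features in E. globulus xylem (vertical axis, 4 arrays) against E. grandis clone B xylem (horizontal axis, 2 arrays). Red points are the 9 features with a limma adjusted p under 0.05, and the line marks equal means; LYPTUS00S00016780 and LYPTUS00S00011460 lie about 4 units above it, at 3.99 and 3.54.

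The number of calls moved with the arrays in the fit, among all features as well as among the 202. It was 9 of the 202 and 769 of all features over all 6 arrays. Without E. grandis clone B ramet 1 it was 2 of the 202 and 75 of all, and without its ramet 2 it was 3 and 116. Without E. globulus clone B ramet 1 it was 5 of the 202 and 424 of all, and without its ramet 2 it was 5 and 364. Leaving out ramet 1 of E. globulus clone A gave 12 of the 202 and 1546 of all features, and leaving out its ramet 2 gave 21 and 2349. With the ramet number as a block, 30 of the 202 (14.9%) and 3512 of all features were called. Fitting the array series as a block set E. globulus against clone B ramet 1 of the same lower series, which repeats the fit without clone B ramet 2. LYPTUS00S00016780 and LYPTUS00S00011460 kept their call in each of these fits, with log2 differences of 3.70 to 4.28 and 3.47 to 3.85 over 18 alternatives. LYPTUS00S00007262 lost its call without clone B ramet 1, at a log2 difference of -2.12. LYPTUS00S00000195 lost its call without either clone B ramet, at -1.49 without ramet 1 and -1.62 without ramet 2. It also lost its call with all 10 arrays in the fit (log2 difference -1.55, limma adjusted p 0.106). From which species the probes were drawn is not stated here, and less transcript and a weaker match to the probe cannot be told apart where a species is dimmer.

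**Figure D5:**
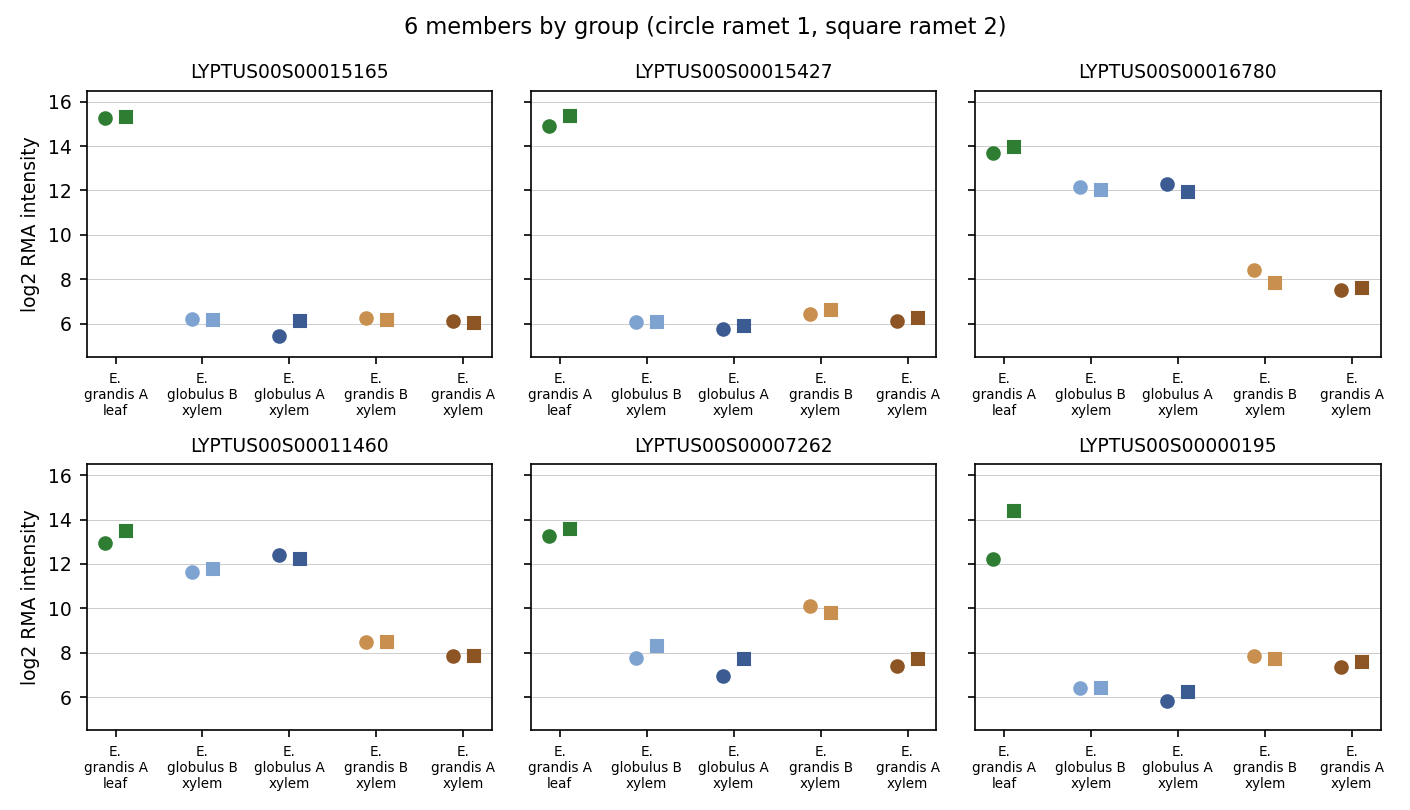
Log2 RMA intensity (vertical axis) of 6 features in the 5 groups (horizontal axis), with a circle for ramet 1 and a square for ramet 2. LYPTUS00S00015165 and LYPTUS00S00015427 are near 6 in all xylem, LYPTUS00S00016780 and LYPTUS00S00011460 are near 12 in E. globulus xylem, LYPTUS00S00007262 is near 10 in E. grandis clone B xylem, and LYPTUS00S00000195 is lowest in E. globulus.

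The E. globulus clones were compared next, clone B against clone A. Of the 202 features, 0 passed the threshold in limma, against 0.00934% of all features (2 of 21413), and 5, or 2.48%, had an unadjusted p under 0.05, against 7.38% of all features. With the ramet number as a block, 0 of the 202 and 744 of all features were called. The smallest adjusted p among the 202 was 0.602. In 62 features both clone B arrays lay above both clone A arrays and in 8 below, against 21.2% and 17.4% of all features. The median log2 difference was 0.22 for the 202 and 0.05 for all features. E. globulus clone A ramet 1, the array of widest interquartile range, was the lowest of the 6 in 124 of the 202 features, or 61.4%, against 37.2% of all features. Without this array the median difference of the 202 was 0.02, and that of all features 0.03. Without clone A ramet 2, by contrast, 10 of the 202 and 2800 of all features were called.

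LYPTUS00S00003280 varied widely between trees of 1 clone. In E. globulus xylem it was at 9.52 and 8.59 in clone B and 10.12 and 8.21 in clone A, against 7.76 and 8.20 in E. grandis clone B. The 4 E. globulus values span nearly 2 units and reach down to those of E. grandis, and the species difference of 1.13 (SE 0.486) had a limma adjusted p of 0.285. It was also the feature whose leaf ramets differed most.

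E. grandis clone B and clone A xylem were set side by side with no test, since the rule chose features that were low in clone A. Clone B minus clone A had a median of 0.11 log2 units over the 202 features, with a range of -1.25 to 2.39, against 0.07 over all features. Clone B was more than 1 unit above clone A in 4 features and more than 1 unit below in 1. The highest of these was LYPTUS00S00007262.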

How the data were processed

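Each of the 10 RNA samples carried the Cy3 dye and had 1 array, per the labels. The deposited files hold linear intensity values, given as RMA expression values per feature and block. RMA is named in the submitters' processing notes, with no version or settings, and whether the arrays were normalised jointly is not known. The arrays' number, 2 per group, limits the precision. The value table of the series, divided by 10000, equalled the block means of array files to within 0.001 units. Its scale is thus known and it is not centred, while its columns disagree with the per-array files on 9 samples. Column medians were 2366804 and 2316820.5 (named leaf), 2212800.5 and 2233937.5 (E. globulus clone B), 2373949.5 and 2312826.5 (E. globulus clone A), 2260218 and 2253241 (E. grandis clone B), and 2310113 and 2239949.5 (E. grandis clone A xylem).

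Intensities were turned into log2 values and averaged over the 2 blocks, with no further normalisation and no filter. Tests used limma 3.58.1 in R 4.3.3 over all 21413 features of the 6 xylem arrays outside the rule, with 1 mean per group and 3 residual degrees of freedom, Benjamini-Hochberg adjustment and a threshold of 0.05. The fit was run on simulated data with noise drawn independently for each array. Such data lack the ramet differences shared between groups that are given below, so the run does not bear on them. Descriptions and figures were made in Python 3.11.15 with pandas 2.3.3 and matplotlib 3.10.9. Leaf and xylem of clone A with 1 ramet number came from 1 tree, per the labels, and the rule pairs them. Ramet differences in leaf and xylem correlated over all features with r = -0.354. This value is negative, so it does not bear out the pairing, which rests on the labels. What lies behind it was not tested. In the 6 other xylem arrays the ramet numbers name trees of different clones, and the labels do not say that they share anything else. The ramet differences of these 3 groups correlated over all features with r = 0.426 to 0.642, so the counts with the ramet number as a block stand beside the main ones. The features and comparisons were chosen with earlier results of these data known. Named features follow a rule: the 2 of largest tree difference, brightest in leaf, brightest in clone A xylem, of widest leaf or xylem spread and nearest the limit on each side, and per comparison the 2 most positive and 2 most negative called differences without overlap. The remaining features called between E. globulus and E. grandis clone B are named too, for their E. grandis clone A xylem values. No gene lists were used, since IDs had no names.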

Additional observations from a re-analysis of the deposited data

Results flagged for a closer look

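In a search of 33 measures for 1 array far from the others of its kind, 1 stood out. About 1 in 20 would by chance, or 1.65 of the 33, so this is no more than chance would give. LYPTUS00S00015165 had a log2 intensity of 5.45 on E. globulus clone A ramet 1, against 6.12 to 6.22 on the other 3 E. globulus arrays. That array had the widest interquartile range of the 10, 2.84 log2 units, and its part in the low value was not tested.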

How the results depend on the processing

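Each array is 1 of 2 in its group, and no background level was measured, which limits every fold change against dim xylem values. The 202 features became 224 after quantile normalisation, 193 with arrays centred on their medians, 202 and 207 from block 1 and block 2 alone and 203 from the linear mean of the blocks. With a limit of 3 log2 units 395 features met the rule, with 5 units 94, and from 1 tree alone 204 to 498. Mean leaf minus mean xylem, with the trees unpaired, gave 298. By the value table's columns as named, 2 features met the rule, 0 of the 202 lay 4 units above the other xylem, and 0 were called between E. globulus and E. grandis clone B. There the differences of LYPTUS00S00007262 and LYPTUS00S00000195 turned positive, at 2.05 and 2.71 (limma adjusted p 0.868 each, against 4.45e-06 to 0.369 and 3e-05 to 0.106 over the other alternatives), and that table places the arrays filed as leaf under E. globulus. The 142 features at least 4 units above all 6 other xylem arrays were 131 to 165 under the other scalings and blocks, and 142 to 186 with any 1 leaf or xylem array left out. The 9 features called between E. globulus and E. grandis clone B were 2 to 21 with any 1 array left out, 3 with the array series as a block and 6 to 9 under the other alternatives that kept the per-array files, except the ramet number. With clone as a random block over the 8 xylem arrays, 6 of the 202 and 903 of all features were called. Only 4 of these 6 were among the 9 of the main fit. With the ramet number as a replicate block, 30 of the 202 and 3512 of all features were called, in place of 9 and 769. For the E. globulus clones that block gave 0 of the 202 and 744 of all. The count for the E. globulus clones was 0 to 10 with any 1 array left out and 0 under the other alternatives. The cause of these shifts was not tested.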

Other observations

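The 202 leaf-high features were not spread evenly over the feature numbers in the IDs. In 5 classes of equal size by number, the lowest class, 1 to 4283, held 62 of them (1.45% of its features), the next class 58 (1.35%), and the 3 classes above these 20, 32 and 30 (0.467%, 0.747% and 0.7%). Mean log2 intensity over all features and arrays also differed between these classes, at 8.69, 8.46, 7.87, 7.71 and 7.68 in the order of the numbers. What the order of the numbers stands for is not known here.

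A further 9 features lay at least 4 log2 units above all 6 xylem arrays of E. globulus and E. grandis clone B on both leaf arrays, without meeting the rule in clone A. Their smaller tree difference ran from 1.67 to 3.95 log2 units. Over the 202 features the SD between blocks was 0.488 log2 units on leaf ramet 1, against 0.251 on leaf ramet 2 and 0.282 to 0.394 on the xylem arrays.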
